A study of Mus musculus with 6 samples.

Results

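Integrin subunits pair up to form the receptors with which a cell holds on to its surroundings. Transcripts of 10 such subunits were followed in mouse macrophages given LPS, and they were chosen by symbol, as the rows of the count table whose Ensembl identifier carries that symbol in the GENCODE M21 annotation. They were 7 alpha subunit genes (Itga4, Itga5, Itga6, Itgal, Itgam, Itgav and Itgax) and 3 beta subunit genes (Itgb1, Itgb2 and Itgb5), and they made up 10 of the 55335 rows. The table holds 27 integrin subunit genes in all. The cells were bone marrow derived macrophages (BMDMs) of C57BL/6 mice, with library names marked WT (wild type), grown in medium conditioned by L929 cells, which supplies the macrophage growth factor M-CSF. In each group 3 libraries of total RNA were sequenced, from cells kept with PBS or with LPS (a bacterial wall component sensed through TLR4) for 1 h. The labels give no dose, sex or age, and they do not say whether replicates came from separate mice, so each p-value measures the spread between these libraries, which may be technical. BMDMs are a cultured model without the matrix, vessel wall or flow that integrins meet in tissue.

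An integrin is a heterodimer of an alpha and a beta chain that crosses the plasma membrane. The outer part binds matrix proteins or counter-receptors on other cells, and the short tails bind talin, kindlin and other adaptors that couple the receptor to actin. The pair decides the ligand. With Itgb1 (CD29), Itga5 forms the classical fibronectin receptor, Itga4 forms VLA-4, which binds VCAM-1, and Itga6 forms a laminin receptor. Itgav joins Itgb1, Itgb5 and other beta chains in receptors for vitronectin, fibronectin and latent TGF-beta. Itgal, Itgam and Itgax (CD11a, CD11b and CD11c) join Itgb2 (CD18) in the leukocyte integrins, which bind ICAMs, complement fragments and other ligands. In macrophages these receptors serve adhesion, migration and uptake of opsonized particles and dying cells. Steady-state transcripts were measured here, not protein or surface receptor.

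The libraries held 37787611 to 41516330 counts, and the members took 0.255 to 0.264% of them with PBS and 0.328 to 0.331% with LPS. Macrophage markers (8 genes, among them Csf1r, Adgre1 and Lyz2) summed to 29916 to 31200 normalized CPM with PBS and 35815 to 36167 with LPS. Normalized CPM express a count relative to the library total multiplied by the TMM factor of edgeR. Markers of neutrophils (9 genes) summed to 53.1 to 55.2 normalized CPM with PBS and 64.2 to 65.3 with LPS, with Ly6g at or under 3 counts in every library. Dendritic cell markers (5 genes, among them Flt3 and Zbtb46) summed to 3.32 to 4.23 with PBS and at least 10.05 with LPS, and all 5 passed the thresholds given below as higher. The summed markers of T and NK cells (7 genes) stayed between 0.903 and 1.44, those of B cells (5 genes) between 2.88 and 3.64, those of platelets (6 genes) between 6.07 and 7.54 and those of fibroblasts (6 genes) between 13.7 and 17.7 normalized CPM. The part of the cells behind these sums in the results was not tested, and in bulk RNA fewer cells of a type and less RNA per cell cannot be told apart.

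The comparison of LPS with PBS asks which subunits the cells changed within the first hour of LPS. A gene was called where the quasi-likelihood test of edgeR gave an adjusted p under 0.05 and the log2 fold change was beyond 1 in size. All 10 members passed the filter on low counts. Itga5, Itgav and Itgal were called higher (3 of 10, against 10.5% of the 15687 tested genes) and 0 were called lower (against 10.4%). On the adjusted p alone, 9 were higher (against 32.9% of tested genes), 0 were lower (against 34.9%) and Itgax did not pass. The normalized CPM of the groups did not overlap for those 9 members, against 70.5% of tested genes. The median log2 fold change of the members was 0.36, beside -0.013 over all tested genes. The scaling between libraries matters for the smaller of these values and is taken up after the single genes.

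**Figure D1:**
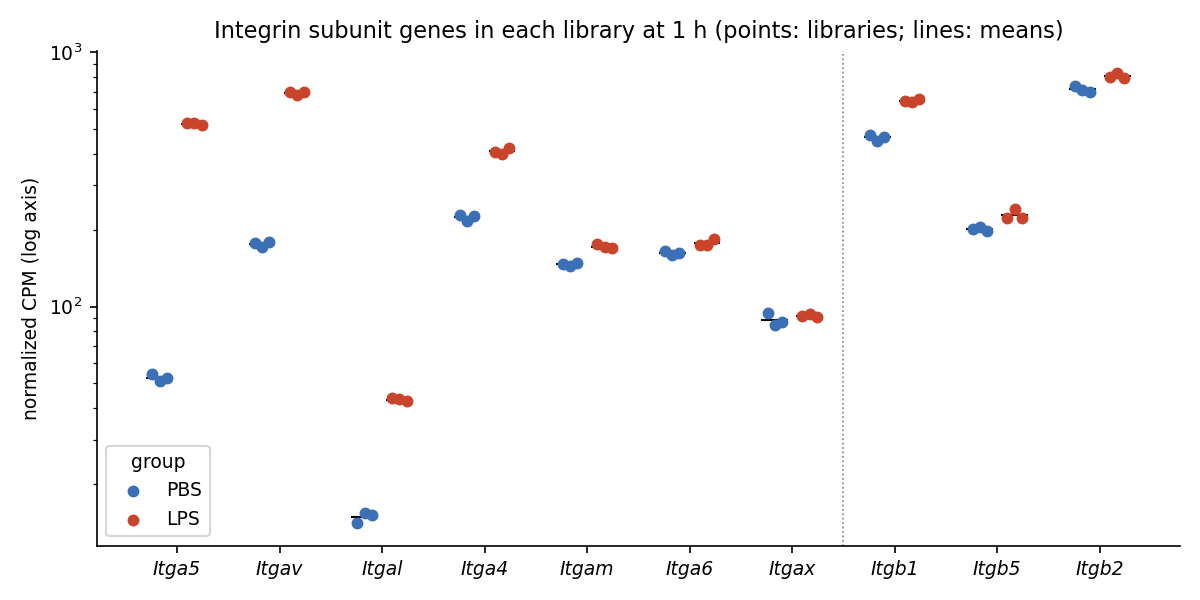
Normalized CPM of each member in each library at 1 h, on a log axis, with PBS in blue, LPS in red and a line at the group mean; alpha genes stand left of the dotted line and beta genes right of it. Itga5 moved from between 50.9 and 54.1 to between 519 and 527, and Itgax is the member whose groups overlap.

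The promoters of the called genes and of the gene that did not pass are shown to let their sequence be set beside these changes. RefSeq's promoter table (build GRCm38.p6) holds 7 of the 10 members, and not Itga6, Itgal or Itgb2. The 250 bases before the start annotated by RefSeq are given 5′ to 3′ on the gene's strand. Capitals mark matches to the motifs listed after the sequences. For Itga5 and Itgax the RefSeq start lies some bases away from the GENCODE start of the gene coordinates given further on. They lie at chr15:103366792-103367041 (minus strand) for Itga5, at chr2:83724147-83724396 (plus strand) for Itgav and at chr7:128129300-128129549 (plus strand) for Itgax.
Itga5: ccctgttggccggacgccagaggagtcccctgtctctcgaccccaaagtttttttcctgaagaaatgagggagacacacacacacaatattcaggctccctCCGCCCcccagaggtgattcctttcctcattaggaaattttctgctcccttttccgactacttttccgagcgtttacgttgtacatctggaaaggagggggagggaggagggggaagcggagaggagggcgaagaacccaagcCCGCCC
Itgav: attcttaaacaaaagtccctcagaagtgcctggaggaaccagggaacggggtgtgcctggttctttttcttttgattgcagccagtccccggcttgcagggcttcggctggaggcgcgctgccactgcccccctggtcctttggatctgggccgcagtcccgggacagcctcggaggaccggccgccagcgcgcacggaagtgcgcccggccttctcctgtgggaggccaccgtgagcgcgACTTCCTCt
Itgax: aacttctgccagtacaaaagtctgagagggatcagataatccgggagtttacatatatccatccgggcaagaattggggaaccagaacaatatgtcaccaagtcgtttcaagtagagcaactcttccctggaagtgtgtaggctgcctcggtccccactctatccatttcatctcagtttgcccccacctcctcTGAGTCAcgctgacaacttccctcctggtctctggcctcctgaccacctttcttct
Searched on both strands were a GC box (GGGCGG), an AP-1 site (TGANTCA), a CRE (TGACGTCA), a PU.1 site (GAGGAAGT), a TATA box (TATAAA) and the NF-kB consensus. The Itga5 window held 2 GC boxes, at -149 to -144 and at -6 to -1 from the start, both on the opposite strand. In the Itgav window the PU.1 letters stood at -9 to -2 on the opposite strand. The Itgax window held an AP-1 match, TGAGTCA, at -56 to -50. Itga4, Itgam and Itgb1 held 1 GC box each and Itgb5 held 3. None of the 7 windows held a match to the NF-kB consensus, the CRE or the TATA box. Among the 32851 windows of this length in the table, 32.7% held the GC box, 12.4% the TATA box, 6.75% the AP-1 site, 3.9% the NF-kB consensus, 2.44% the PU.1 site and 1.55% the CRE. These matches describe letters in a short window, without a measure of binding.

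Itga5 (ENSMUSG00000000555.8), the alpha chain of the fibronectin receptor, had the highest fold among the members. It lies on chromosome 15 from 103344286 to 103366763 on the minus strand (GRCm38), a protein-coding gene with 4933 exonic bases that no other annotated gene shares. Its counts were 2576, 2299 and 2423 in the PBS libraries and 17629, 17200 and 17666 in the LPS libraries. Every LPS library thus held several times the count of every PBS library. In normalized CPM the mean rose from 52.5 ± 1.61 to 524 ± 4.17 (SD, n = 3 each). The log2 fold change was 3.32 (SE 0.04), with an adjusted p of 4.63e-22 by edgeR's quasi-likelihood test. Itga5 stands in the study's list of genes assigned to LPS-responsive, eRNA-producing enhancers, a list that drew in part on these libraries, so its place there is not independent of this rise.

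Itgav (ENSMUSG00000027087.11), the shared alpha chain of the vitronectin receptors, lies on chromosome 2 from 83724397 to 83806916 on the plus strand. Its counts were 8474, 7783 and 8254 with PBS and 23349, 22197 and 23724 with LPS. The groups were far apart and the libraries within each close together. The mean was 176 ± 3.58 normalized CPM with PBS and 691 ± 9.46 with LPS (n = 3 each, SD), with a log2 fold change of 1.97 (SE 0.03, adjusted p 3.93e-19 by edgeR). An annotated transcript on the opposite strand, Gm13684, shares 5.9% of the exonic bases of Itgav and had a mean of 0 counts with PBS and 3 with LPS.

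Itga4, the alpha chain of VLA-4, lies on the same chromosome and strand from 79255426 to 79333123, 4391.3 kb before Itgav. It measured 229, 218 and 228 normalized CPM with PBS and 407, 397 and 421 with LPS. The log2 fold change was 0.86 (SE 0.03, adjusted p 1.83e-13 by edgeR), short of the fold threshold although the groups did not overlap. Its neighbour Cerkl, on the opposite strand, shares 8.04% of the exonic bases of Itga4. Cerkl had a mean of 93.3 counts with PBS and 34.3 with LPS.

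Itga6, the alpha chain of the laminin receptor, lies further towards the start of chromosome 2, from 71745616 to 71858416 on the plus strand. It measured 166, 160 and 163 normalized CPM with PBS and 175, 175 and 184 with LPS. The groups stayed apart by a small margin. The log2 fold change was 0.13 (SE 0.03, adjusted p 0.00224 by edgeR), and it turned negative with other scalings (below).

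Of the partners of Itgb2, Itgal was the member that passed both thresholds. Itgal (ENSMUSG00000030830.18), the alpha chain of LFA-1, lies on chromosome 7 from 127296260 to 127335138 on the plus strand. Its counts were 670, 699 and 698 with PBS and 1466, 1409 and 1444 with LPS, the lowest of the 10 genes in every library. The mean rose from 14.9 ± 0.730 to 43.1 ± 0.631 normalized CPM (n = 3 each, SD), with a log2 fold change of 1.53 (SE 0.05, adjusted p 7.09e-15 by edgeR).

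Itgam, the alpha chain of the complement receptor Mac-1, lies 727.5 kb further on, from 128062640 to 128118491 on the plus strand. It measured 147, 145 and 149 normalized CPM with PBS and 176, 171 and 170 with LPS. That is a small difference without overlap, with a log2 fold change of 0.23 (SE 0.03, adjusted p 5.12e-06 by edgeR). The annotated gene Gm49368, on the same strand, shares 3450 of the 5024 exonic bases of Itgam (68.7%) and had a mean of 2.33 counts with PBS and 2 with LPS. Gm49368 held so few counts that reads in the shared exons were not credited to both genes. How the authors treated such reads is not given in the sources used here. If they were left out, the level of Itgam per kb of all exons is too low, so that level is uncertain.

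Itgax, the alpha chain of CD11c/CD18 and a common marker of dendritic cells and alveolar macrophages, starts 11.1 kb after the end of Itgam and runs from 128129547 to 128150657 on the plus strand. It measured 94.7, 85.0 and 86.7 normalized CPM with PBS and 91.6, 93.5 and 91.0 with LPS. PBS replicate 1 was the highest library of all 6 and the groups overlapped. The log2 fold change was 0.052 (SE 0.04, adjusted p 0.274 by edgeR). Without PBS replicate 1 it was 0.099 with an adjusted p of 0.0319. Of the 50-base stretches of Itgax, 8.02% also occur in Itgad, its paralog and next neighbour, 3.7 kb away.

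The beta chains moved less than the called alpha chains. Itgb1, the partner of the greatest number of alpha chains, lies on chromosome 8 from 128685654 to 128733200 on the plus strand. It measured 475, 450.1 and 466 normalized CPM with PBS and 642, 639 and 658 with LPS. No PBS library reached an LPS library, and the log2 fold change was 0.48 (SE 0.03, adjusted p 6.12e-10 by edgeR).

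Itgb2, the chain of the leukocyte integrins, lies on chromosome 10 from 77530252 to 77565708 on the plus strand and had the highest counts of the 10 genes in every library. It measured 739, 708 and 697 normalized CPM with PBS and 803, 828 and 791 with LPS (log2 fold change 0.18, SE 0.04, adjusted p 2.60e-04 by edgeR). Itgb5, a partner of Itgav in vitronectin binding, lies on chromosome 16 from 33829665 to 33949338 on the plus strand. It measured 203, 206 and 198 normalized CPM with PBS and 224, 242 and 223 with LPS (log2 fold change 0.18, SE 0.04, adjusted p 2.52e-04 by edgeR). For both genes the groups stood apart, by less than the difference of Itgb1.

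The TMM factors were near 1.15 for PBS and between 0.864 and 0.872 for LPS, so the scaling shifts every fold change in the same direction. With library size alone the median of all tested genes lay 0.40 lower on the log2 scale, and with upper quartile scaling 0.14 lower. With library size alone 5 members were higher and 5 lower past the adjusted p, where TMM gave 9 and 0. Those that turned were Itga6 (-0.27), Itgam (-0.17), Itgax (-0.35), Itgb2 (-0.23) and Itgb5 (-0.22). Upper quartile scaling also turned Itga6 (-0.011) and Itgax (-0.091), neither past the adjusted p. Itga5 (2.91), Itgav (1.57) and Itgal (1.13) stayed past both thresholds with library size alone, Itga4 stayed higher at 0.45, and Itgb1 at 0.074 with an adjusted p of 0.0488. The small changes of Itga6, Itgam, Itgb2 and Itgb5 thus have no direction that holds under each scaling.

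**Figure D2:**
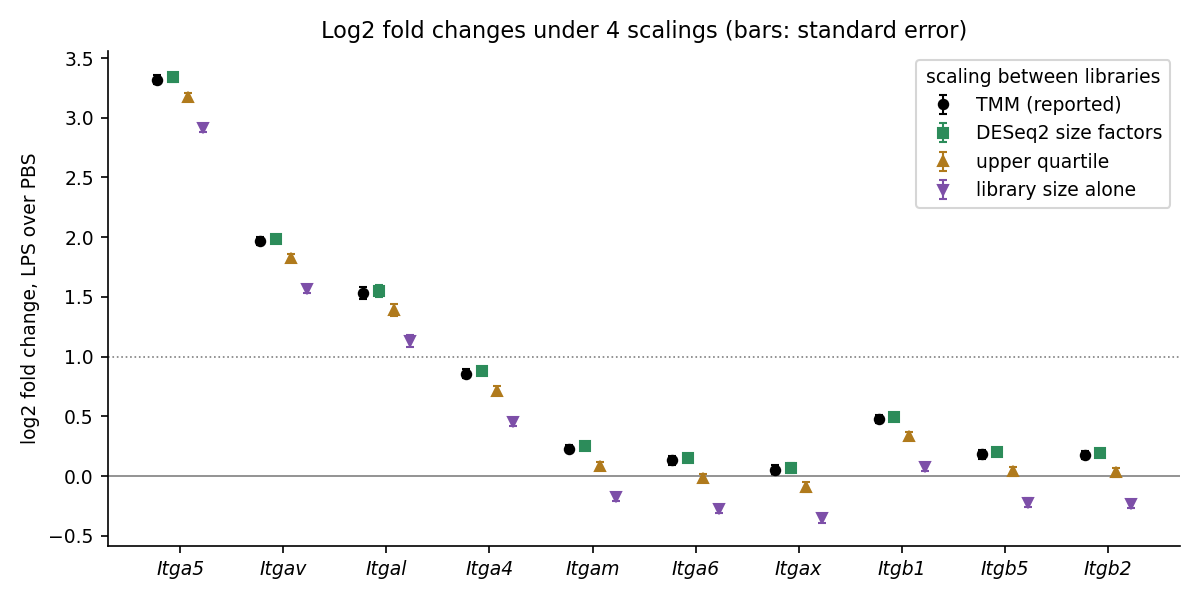
Log2 fold change of LPS over PBS for each member with its standard error, under TMM (black), DESeq2 size factors (green), upper quartile (ochre) and library size alone (violet); the dotted line is the fold threshold. Itga5, Itgav and Itgal lie above it under all 4, while Itga6, Itgam, Itgax, Itgb2 and Itgb5 lie on both sides of 0.

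To compare genes with each other, normalized CPM were divided by exonic length in kb. With PBS the order of these levels was Itgb2 (234), Itgb1 (114), Itgb5 (56.9), Itgam (29.2), Itgax (18.5), Itga6 (18.0), Itgav (16.4), Itga4 (16.1), Itga5 (10.6) and Itgal (2.27). Neighbours in that order were apart in all libraries, except Itgax with Itga6 and Itgav with Itga4. In this order the beta chains led and Itga5 stood in place 9. With LPS the order was Itgb2 (265), Itgb1 (158), Itga5 (106), Itgb5 (64.7), Itgav (64.3), Itgam (34.3), Itga4 (29.2), Itga6 (19.8), Itgax (19.2) and Itgal (6.56). Here Itgb5 with Itgav and Itga6 with Itgax could not be ordered. Itga5 moved from place 9 to place 3, and Itgal stayed last. The order depends on the length used. As an alternative chosen after seeing the data, the same counts were divided by the length of exons that no other gene shares. Itgam then measured 93.3 with PBS, above Itgb5, and 109.5 with LPS, above Itga5 (106). Reads were not recounted, so these levels of Itgam are too high if reads in its shared exons were counted. Over the longest transcript Itgav measured 98.0 with LPS, above Itgb5 (70.0).

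The make-up of the alpha transcripts does not depend on the scaling between libraries, because each share is taken within a library. Itga5 held 9.67, 9.50 and 9.53% of the alpha level per kb with PBS and 37.9, 38.4 and 37.6% with LPS. Itgav went from 14.8 ± 0.151% to 23.0 ± 0.217% (SD, n = 3 each). The shares of Itgam (26.3 to 12.3%), Itgax (16.6 to 6.86%), Itga6 (16.2 to 7.07%) and Itga4 (14.5 to 10.5%) were lower with LPS, and that of Itgal went from 2.04 to 2.35%. Under TMM scaling, a lower share here goes with a level that was near its PBS value or, for Itga4, higher. With library size alone the levels of Itgam (-0.17), Itgax (-0.35) and Itga6 (-0.27) were lower past the adjusted p. Together the partners of Itgb2 held 45.0% with PBS and 21.5% with LPS, and the partners of Itgb1 or Itgb5 held 55.0 and 78.5%. Itgam weighs on these shares through its shared exons. With lengths that leave out shared exons, an alternative chosen after seeing the data, Itgam went from 52.5 to 30.3%, Itga5 from 5.99 to 29.4% and the partners of Itgb2 together from 64.2 to 37.4%. The direction was the same with both lengths, but the leading alpha gene with LPS was Itga5 with the first and Itgam with the second. Over the longest transcript the directions were also the same. There Itga6 led with PBS (24.5%, Itgam 20.4%) and Itga5 with LPS (32.3%). The partners of Itgb2 together held 36.5% with PBS and 18.5% with LPS at that length.

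**Figure D3:**
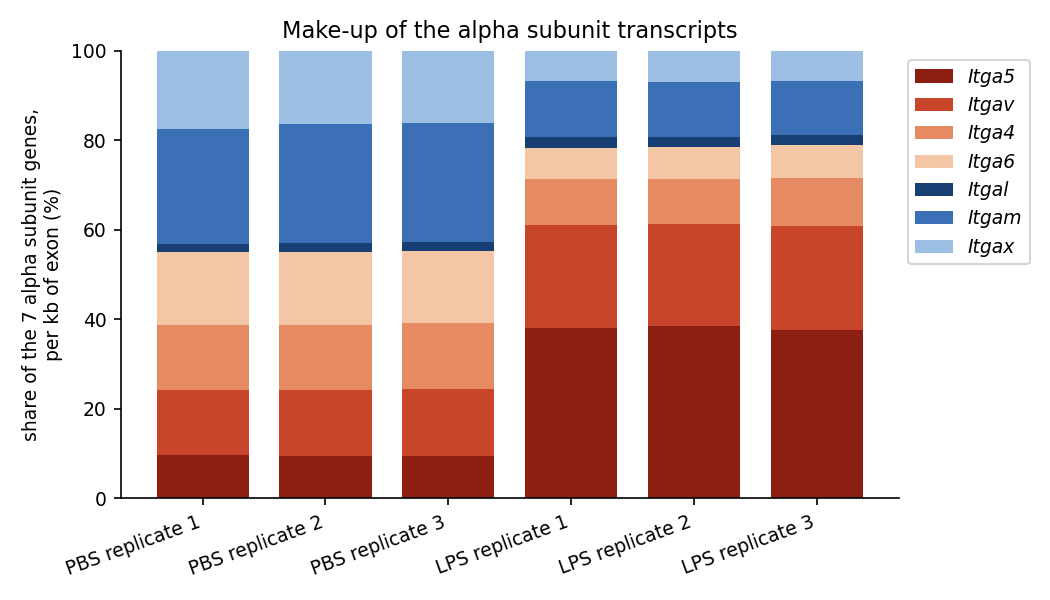
Share of each alpha gene in the summed level of the 7, per kb of exon, in percent, for each of the 6 libraries. The partners of Itgb1 or Itgb5 (red shades) filled 55.0% with PBS and 78.5% with LPS, and the partners of Itgb2 (blue shades) the rest. With lengths that leave out shared exons, the partners of Itgb1 or Itgb5 held 35.8% with PBS and 62.6% with LPS.

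An alpha chain needs a beta chain to reach the surface, so 8 known pairs were compared as the log2 ratio of alpha to beta counts per kb within each library. Itga5 to Itgb1 was -3.41, -3.42 and -3.42 with PBS and -0.56, -0.55 and -0.62 with LPS. That is 0.0937 Itga5 per Itgb1 with PBS and 0.671 with LPS, a difference of 2.84 (SE 0.02) on the log2 scale. Itgav to Itgb5 went from 0.288 to 0.995 (difference 1.79, SE 0.06) and Itgav to Itgb1 from 0.145 to 0.406 (difference 1.49, SE 0.02). In these 3 pairs the alpha level per kb came closer to that of the beta chain in every LPS library. The ratios use the length of all exons. Over the longest transcript Itgav measured 25.0 and Itgb5 61.6 with PBS, and 98.0 and 70.0 with LPS. The near equality of Itgav and Itgb5 with LPS thus rests on the length used. Itgal to Itgb2 went from 0.00967 to 0.0248 (difference 1.36, SE 0.07). Itga4 to Itgb1 differed by 0.38 (SE 0.01), Itga6 to Itgb1 by -0.35 (SE 0.01) and Itgax to Itgb2 by -0.12 (SE 0.03). Itgam to Itgb2, which overlapped between groups, differed by 0.056 (SE 0.04). The exact two-sided permutation test gave p = 0.1 for 7 of the pairs (0.114 after Benjamini-Hochberg adjustment over the 8), the smallest p that 3 against 3 libraries allow, and p = 0.2 for Itgam to Itgb2. This test can therefore pass no pair at 0.05 with 3 libraries a group.

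**Figure D4:**
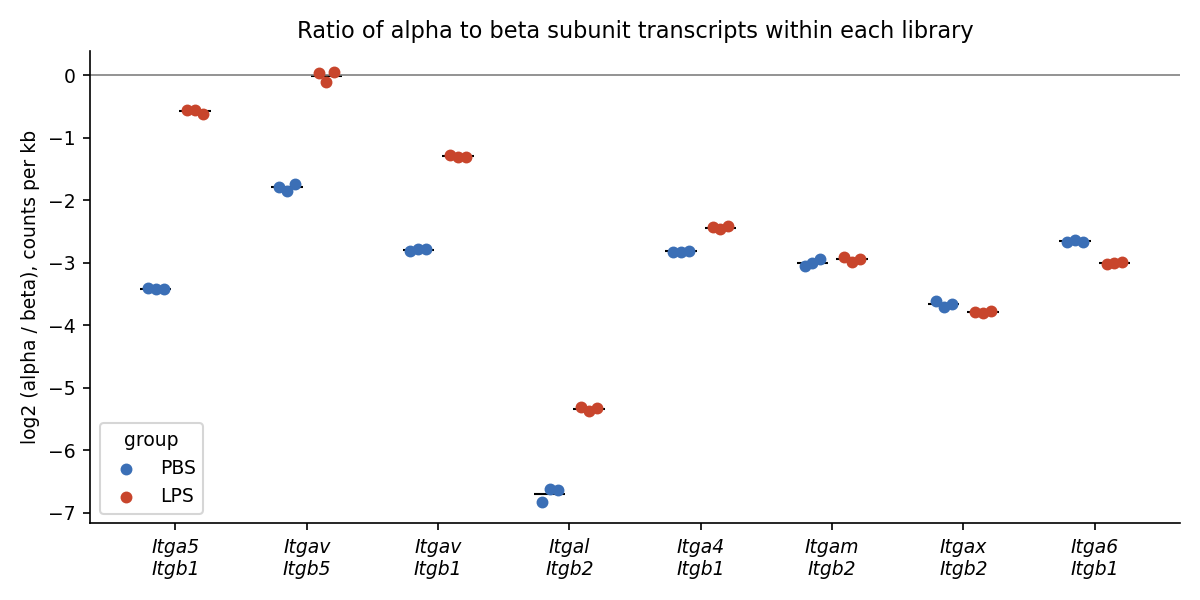
Log2 ratio of alpha to beta counts per kb in each library for the 8 pairs, with PBS in blue, LPS in red and a line at the group mean; 0 means equal levels. Itgav to Itgb5 reached -0.0073 on average with LPS over all exons, and Itgam to Itgb2 overlapped between groups. Over the longest transcript Itgav (98.0) stood above Itgb5 (70.0) with LPS.

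Summed over its 4 alpha partners here, Itgb1 faced 0.539 ± 0.00313 alpha per beta with PBS and 1.39 ± 0.0152 with LPS, 2.57-fold more (SD, n = 3 each). The 3 partners of Itgb2 summed to 0.213 ± 0.00478 per Itgb2 with PBS and 0.227 ± 0.00496 with LPS, 1.06-fold more. With the same counts and lengths that leave out shared exons, the sum per Itgb2 was 0.487 with PBS and 0.512 with LPS (1.05-fold). That per Itgb1 was 0.560 and 1.43 (2.55-fold). The changes were thus alike with both lengths, and the level of the Itgb2 partners was not. Itgav is counted whole for Itgb1 although it also joins other beta chains. These are ratios of transcripts and give no count of receptors.

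The other integrin subunit genes were mostly low. Of the 17, 11 passed the filter, 7 were higher past the adjusted p, 0 were lower, and their median log2 fold change was 0.52. Among all tested genes 32.9% were higher and 34.9% lower past it, and 10.5% were called higher. Itgb8, the beta chain that joins Itgav in TGF-beta activation, had 25, 33 and 38 counts with PBS and 147, 123 and 142 with LPS. It rose by 2.57 on the log2 scale (SE 0.16, adjusted p 1.50e-10 by edgeR), so a partner of Itgav rose beside it at a low level. Itgae (CD103), the partner of Itgb7, had 12, 10 and 8 counts with PBS and 16, 28 and 19 with LPS (log2 fold change 1.53, SE 0.34, adjusted p 6.28e-04 by edgeR). Itgad (1.01), a further partner of Itgb2, and Itga9 (1.00), a partner of Itgb1, passed both thresholds narrowly. Both fell under the fold threshold with library size alone, where they measured 0.61 and 0.60, and without LPS replicate 1, where they measured 0.95 and 0.99. So they did with upper quartile scaling (0.87 and 0.86), no filter beyond 1 count (0.98 and 0.98) and 10 counts in every library (0.99 and 0.99). Itga9 also did without the 10 genes highest in mean count (0.997). Leaving out PBS replicate 1 (0.82) or LPS replicate 3 (0.97) did the same for Itgad, and leaving out PBS replicate 3 (0.93) or LPS replicate 2 (0.95) for Itga9. Itgb3 (0.54), the other main partner of Itgav in vitronectin binding, Itga1 (0.52) and Itga2b (0.31) were higher past the adjusted p without reaching the fold threshold. With library size alone none of these 3 passed (adjusted p 0.0754, 0.561 and 0.506 by edgeR). Itga1 also lost the adjusted p without PBS replicate 1 (0.0651) or 3 (0.0758) or LPS replicate 1 (0.0610) or 3 (0.104). Itga2b lost it without PBS replicate 2 (0.0543) or 3 (0.169) or LPS replicate 1 (0.0501), 2 (0.124) or 3 (0.0610). With upper quartile scaling Itga1 (0.0748) and Itga2b (0.242) both lost it. Itga2b also lost it with the DESeq2 test (0.0804) and with no filter beyond 1 count (0.0683). Itgb7 (0.080), Itga2 (0.39), Itga8 (0.42) and Itgb2l (0.41) did not pass. With library size alone Itgb7 was lower past the adjusted p, at -0.32 (adjusted p 1.51e-04 by edgeR). Itgb6 was at 0 counts in every library, which allows up to 0.0919 normalized CPM at a limit of 3 counts, counting error only.

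The next list held 10 ligands that these receptors meet on other cells or, for complement C3, on opsonized particles. Of these, 8 were tested, C3 (0.93) among them, with a median log2 fold change of 2.14. Called higher were 5 (against 10.5% of all tested genes), and 0 were called lower (against 10.4%). Icam1, a ligand of LFA-1 and Mac-1, rose from 90.1 ± 3.24 to 1728 ± 33.4 normalized CPM (SD, n = 3 each), by 4.26 on the log2 scale (SE 0.04, adjusted p 8.80e-23 by edgeR). Vcam1, the ligand of VLA-4, rose from 5.48 ± 0.316 to 98.6 ± 0.841 (4.17, SE 0.05, adjusted p 1.96e-21 by edgeR). Icam4 rose from 0.352 to 10.0 (4.82) and Jam2, a junction molecule, from 0.123 to 1.19 (3.25). The fifth was Icam5 (1.04), which was named after its value was seen. The count was 4 with library size alone, upper quartile scaling, 10 counts in every library, or without PBS replicate 2 or LPS replicate 2, and 6 without PBS replicate 3 or LPS replicate 3. Icam2, the constitutive ICAM of many leukocytes, measured 0.054 and did not pass.

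Matrix ligands numbered 25 in the list, of which 18 were tested, with a median of 0.53. Called higher were 2 of the 18, a share close to the 10.5% of all tested genes. Past the adjusted p 13 were higher (against 32.9% of tested genes) and 0 were lower (against 34.9%). Thbs1, the matrix protein thrombospondin-1, rose from 88.8 ± 1.59 to 4249.6 ± 38.1 normalized CPM (SD, n = 3 each), by 5.58 on the log2 scale (SE 0.04, adjusted p 1.82e-24 by edgeR). Tnc, tenascin-C, a ligand of Itgav and Itga9 receptors, rose from 2.56 to 5.21 (1.03). Tnc fell under the fold threshold with library size alone (0.62) and without PBS replicate 3 (0.93), LPS replicate 1 (0.94) or LPS replicate 3 (0.98).

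Genes for proteins that switch integrins at their tails moved both ways. Of 11 activators 10 were tested, with 5 higher and 2 lower past the adjusted p and a median of 0.26. Among all tested genes 32.9% were higher and 34.9% lower past it, with 10.5% called higher and 10.4% called lower. Cyth1 (cytohesin-1), which binds the Itgb2 tail, was the activator that passed both thresholds, from 49.8 ± 0.961 to 288 ± 0.445 normalized CPM (SD, n = 3 each; log2 fold change 2.53, SE 0.03, adjusted p 8.82e-21 by edgeR). Its binding partner Cytip, which draws cytohesin-1 away from the membrane, was called higher among the 7 inhibitors (4.07, SE 0.05, adjusted p 7.67e-22 by edgeR), from 12.4 ± 0.532 to 208 ± 8.01. Dok1, which competes with talin for the beta tail, was called lower (-1.17, SE 0.05, adjusted p 5.98e-13 by edgeR). In all 4 genes listed as inhibitors were higher (Flna, Tns1, Tns3 and Cytip) and 3 lower past the adjusted p, with a median of 0.33. The tensins Tns1 and Tns3 are counted as inhibitors by the list alone, and such a role in these cells was not tested.

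Of 14 genes that link integrins to actin, 13 were tested and all 13 were higher past the adjusted p (against 32.9% of tested genes). Their median was 0.43, which is near the shift that library size alone brings. Of the 13, 2 passed both thresholds, beside 10.5% of all tested genes called higher. Bcar1 (p130Cas), the docking protein of focal adhesions, rose from 4, 12 and 4 counts to 60, 61 and 63 (3.64, SE 0.30, adjusted p 6.28e-09 by edgeR). Tgfb1i1 (1.08) had at most 19 counts in any library and its groups overlapped. It lost the adjusted p without PBS replicate 1 (0.112), PBS replicate 3 (0.0898) or LPS replicate 1 (0.196). It also lost it with the DESeq2 test (0.0824), library size alone (0.142) and upper quartile scaling (0.0529).

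Among 12 kinases and adaptors 8 were higher and 1 lower past the adjusted p, with a median of 0.25. For all tested genes these shares were 32.9% and 34.9%, and 10.5% were called higher. Src, the kinase of adhesion signalling, rose from 7.55 to 41.9 normalized CPM (2.47, SE 0.06), and Lcp2 (SLP-76) from 42.8 to 188 (2.13, SE 0.03), both called. Among 11 membrane partners 9 were higher and 1 lower past the adjusted p, with a median of 0.45, and 3 were called higher. Sdc4 (syndecan-4), the co-receptor of Itga5 and Itgb1 on fibronectin, rose from 202 ± 7.33 to 2369 ± 82.9 normalized CPM (SD, n = 3 each), by 3.55 on the log2 scale (SE 0.04, adjusted p 1.22e-21 by edgeR). Plaur, the urokinase receptor, rose from 26.9 to 312 (3.54) and Slc3a2 (CD98hc), which binds beta tails, from 100.7 to 245 (1.29). With library size alone Slc3a2 measured 0.88, short of the fold threshold, which left 2 called.

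**Figure D5:**
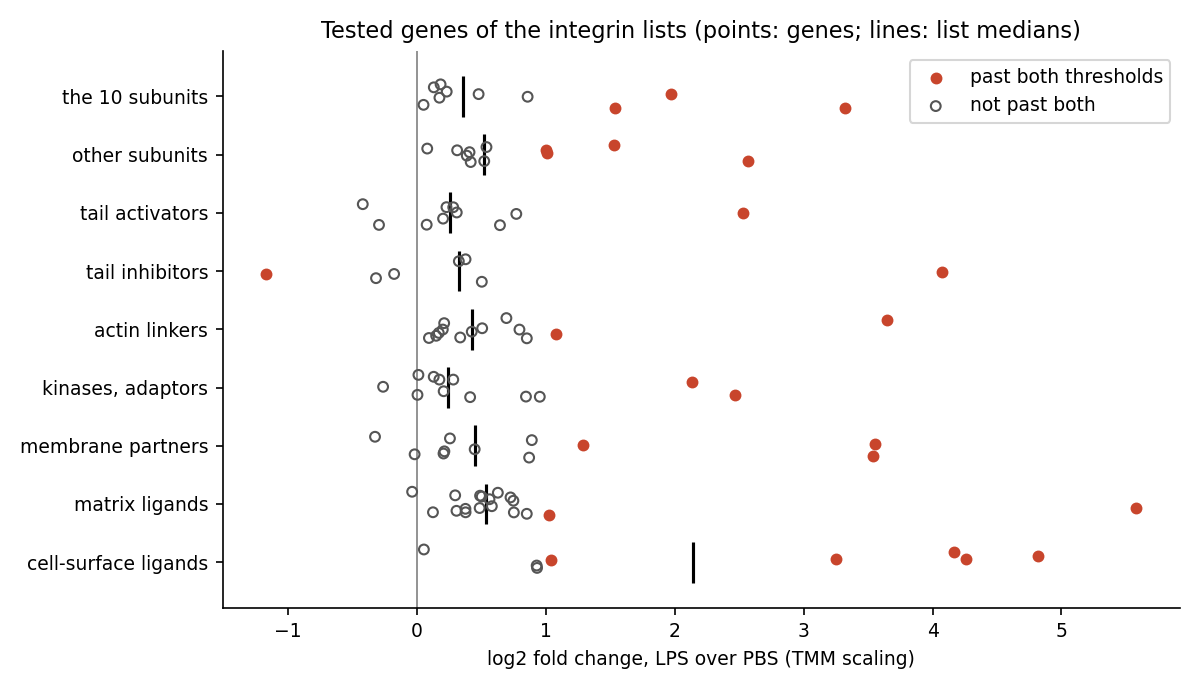
Log2 fold change of LPS over PBS (TMM scaling) for every tested gene of the members and of the 8 lists around them, with filled points past both thresholds and a line at each median. The cell-surface ligands, a list that includes complement C3, have a median of 2.14 and the 10 subunits one of 0.36. With library size alone the median of all genes lies 0.40 further left.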

How the data were processed

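Total RNA of 6 BMDM libraries, 3 given PBS and 3 given LPS for 1 h, was compared. Groups and replicate numbers came from the labels. The authors aligned the reads to GRCm38 with HISAT2 2.1.0, used SAMtools 1.17 and summed reads over genes by featureCounts 2.0.0, and the deposited values are these raw counts. Strand setting, multi-mapping and annotation release are not given in the sources used here. Of the 10 members, all were matched by Ensembl identifier without version to GENCODE M21.

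In R 4.3.3 with edgeR 4.0.16, genes were filtered by filterByExpr (15687 kept), scaled by TMM and tested by quasi-likelihood, and p-values were adjusted over all of them (Benjamini-Hochberg). Calls needed a log2 fold change beyond 1 and an adjusted p under 0.05. Ratios of alpha to beta genes were tested with scipy 1.17.1. Floors of 3 counts equalled 0.0630 to 0.0919 normalized CPM and cover counting error only. Functions were tested on simulated data.

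Named were all members, every tested other subunit and, from each list, the called genes, at most 4 by size of change. A few further listed genes were named to show what a list holds. Members and lists were chosen with earlier results of these data known, so none of their patterns is independent support.

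The labels give the same batch to equal replicate numbers, which pairs the samples. Deviations from group means correlated at -0.01 to 0.08 in same-numbered pairs. The main model had no block, as in the study's methods.

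Alternatives were DESeq2 size factors, library size alone, upper quartile, no filter beyond 1 count in any library, 10 counts in every library, DESeq2 1.42.0, limma 3.58.1 (voom), the replicate block, omission of the 10 genes highest in mean count, omission of each library in turn, and for ratios a prior count of 0.5 or the longest transcript.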

Additional observations from a re-analysis of the deposited data

How the results depend on the processing

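The calls of Itga5, Itgav and Itgal kept their direction and both thresholds under every alternative that was run. The 8 ratios kept their direction when each library in turn was left out and with the prior count. Neither the longest transcript nor the replicate block can move the difference of a log2 ratio between groups, so those fits were no check of it. With library size alone the members past the adjusted p were 5 higher and 5 lower, with Itga6 at -0.27, Itgam at -0.17, Itgax at -0.35, Itgb2 at -0.23 and Itgb5 at -0.22, and among the other subunits Itga2 at -0.013, Itga2b at -0.092 and Itgb7 at -0.32 (past the adjusted p). With upper quartile scaling Itga6 was at -0.011, Itgax at -0.091 and Itgb7 at -0.062, and Itgb2 (0.032) and Itgb5 (0.041) lost the adjusted p. These shifts follow the median of all genes, which moves by -0.40 and -0.14. Genes called lower numbered 1624, 2964 with library size alone and 1027 with 10 counts in every library, where fewer genes were tested (13793). With the replicate block, the paired fit, 9 members were past the adjusted p and higher, and no call of a member or named gene changed. The other subunits called higher were 4 of the 11 tested, beside 10.5% of all tested genes. They were 2 with library size alone, upper quartile scaling, no filter beyond 1 count or without LPS replicate 1. With 10 counts in every library there was 1. Without 1 library the log2 fold change ranged from 3.30 to 3.34 for Itga5, 1.95 to 1.98 for Itgav, 1.49 to 1.56 for Itgal and 0.022 to 0.099 for Itgax. Itga1, Itga2b and Tgfb1i1, with few counts, lost the adjusted p in several of these fits, and depth limits what can be said of them.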
